A study of Homo sapiens with 2 samples.

Results

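CHD4 occupied 6023 regions at promoters of protein-coding genes that do not share their promoter with a neighbouring gene in 501Mel cells. They are 10.0% (Wilson 95% interval 9.78 to 10.3) of the 60099 CHD4 peaks on chromosomes 1 to 22 and X. A peak was counted here if it overlapped, by at least 1 bp, the 1000 bp on either side of the annotated start of a protein-coding gene in GENCODE release 44 on GRCh37. Peaks near a divergent pair were left out, a pair being 2 protein-coding genes on opposite strands whose starts lie up to 1000 bp apart and point away from each other. This took away 385 peaks and 1703 of the 20098 protein-coding genes, so that 18395 genes were left to be scored. The rule used positions alone and no measured value.

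501Mel is an established human melanoma line, grown here in RPMI medium with foetal calf serum, and no treatment is given for it. The series holds 2 libraries, 1 of DNA precipitated with an antibody to CHD4 and 1 of input chromatin, both from cells fixed with 0.4% paraformaldehyde. The values come from the authors' list of broad peaks, that is, regions in which the CHD4 signal stood above the background over a stretch of sequence. With 1 library of each kind no test between conditions was possible, and no value below has a replicate. Intervals cover counting error over peaks or genes of this list, which are not replicates, and the list holds no read counts, so that the depth behind a peak is not known from it.

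CHD4 is an ATP-dependent chromatin remodeller and the motor subunit of NuRD, a complex that also carries histone deacetylases, MBD proteins that bind DNA, and scaffolding subunits. A promoter is the stretch around the point at which RNA polymerase II begins a transcript. At many active genes a region poor in nucleosomes covers the start, with positioned nucleosomes on both sides. Promoters in mammals fall broadly into those within CpG islands, rich in the dinucleotide CG and typical of widely expressed genes, and those poor in CG, typical of genes restricted to a tissue.

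Of the 10 members with the highest fold enrichment (the ratio of ChIP signal to background, averaged over the peak), 8 lay wholly upstream of the start. Their lengths ran from 169 to 823 bp. The sequences of 4 of them, all up to 201 bp long, are shown because they are the 4 highest of all. They are printed 5′ to 3′ along the gene from GRCh37, with every CG dinucleotide in capitals, and position 0 is the start and negative positions lie upstream. *PITPNA* encodes a phosphatidylinositol transfer protein. Its peak (chr17:1466208-1466402, minus strand, positions −316 to −122) reached 6.98-fold with a −log10 q of 12.1, q being the false discovery rate of the authors' peak caller. *GH1* encodes growth hormone, and its peak (chr17:61996794-61996965, minus strand, positions −766 to −595) reached 6.96-fold. *ATMIN* encodes a zinc finger partner of the ATM kinase, with a peak of 6.88-fold (chr16:81069097-81069297, plus strand, positions −350 to −150). *RBSN*, for the endosomal fusion protein rabenosyn-5, had 6.60-fold (chr3:15140809-15140977, minus strand, positions −307 to −139).
PITPNA: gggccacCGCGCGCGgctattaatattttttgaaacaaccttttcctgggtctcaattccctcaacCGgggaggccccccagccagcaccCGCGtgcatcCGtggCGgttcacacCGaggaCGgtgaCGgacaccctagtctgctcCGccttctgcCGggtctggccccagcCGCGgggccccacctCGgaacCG
GH1: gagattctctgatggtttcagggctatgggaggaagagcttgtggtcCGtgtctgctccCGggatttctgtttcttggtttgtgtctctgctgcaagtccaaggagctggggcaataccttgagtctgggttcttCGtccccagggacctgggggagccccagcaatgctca
ATMIN: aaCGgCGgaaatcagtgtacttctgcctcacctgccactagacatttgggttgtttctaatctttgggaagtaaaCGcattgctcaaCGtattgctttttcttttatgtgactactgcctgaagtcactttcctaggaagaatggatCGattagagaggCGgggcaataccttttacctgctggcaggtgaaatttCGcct
RBSN: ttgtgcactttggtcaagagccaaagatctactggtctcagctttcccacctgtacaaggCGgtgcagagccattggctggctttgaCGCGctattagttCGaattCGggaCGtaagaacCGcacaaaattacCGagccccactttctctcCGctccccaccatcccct

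The CG content of these 4 peaks was not alike. The *PITPNA* peak held 18 CG dinucleotides in 195 bp, an observed over expected CG ratio of 0.88 at 65.6% GC. *RBSN* held 9 (ratio 0.78) and *ATMIN* 7 (ratio 0.70, at 44.8% GC), while *GH1* held 3, with a ratio of 0.23. The promoters of *PITPNA*, *ATMIN* and *RBSN* were CpG-rich by the definition given further down, and that of *GH1* was not.

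Among members of high significance the pigment gene *SLC45A2*, which encodes a transporter of the melanosome, stood out by its sequence. Its peak was 2622 bp long and covered the start (positions −2140 to 481), with 5.56-fold and a −log10 q of 11.1. The stretch upstream of this start repeats CATGTG, the M-box that the melanocyte factor MITF can bind. The 1000 bp on either side of the start held 39 copies, all on the gene strand. Counted on both strands, this was the highest number among the genes scored, which had a median of 1 copy. *TFDP1* came next with 14 copies, followed by *ACY3* and *TMEM204* with 13 and *RAB40B* with 12, and none of these 4 had a promoter peak. Among promoters that were not CpG-rich, a peak was present at 25 of 150 genes with 5 or more copies (interval 11.6 to 23.4%) and at 861 of 3419 genes with no copy (25.2%, 23.8 to 26.7). The count of copies was made after the repeats had been seen. The 300 bp from position −700 on (GRCh37 chr5:33985199-33985498, minus strand) are printed with CATGTG in capitals and hold 14 copies.
SLC45A2: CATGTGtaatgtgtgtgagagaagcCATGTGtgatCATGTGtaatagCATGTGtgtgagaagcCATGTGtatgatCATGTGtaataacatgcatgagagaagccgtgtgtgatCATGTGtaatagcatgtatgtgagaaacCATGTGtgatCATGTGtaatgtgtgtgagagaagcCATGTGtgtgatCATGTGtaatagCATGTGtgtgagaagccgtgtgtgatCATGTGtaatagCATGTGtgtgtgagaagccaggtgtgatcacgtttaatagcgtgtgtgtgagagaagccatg

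The other members of highest fold enrichment were at *MYLIP*, for the ubiquitin ligase that degrades the LDL receptor (6.56-fold, positions −1068 to −246), *ITPKC*, an inositol trisphosphate kinase (6.37-fold, −422 to −240), *TENT2*, a poly(A) polymerase (6.29-fold, −161 to 85), *SNRNP70* of the U1 snRNP (5.99-fold, −524 to −343) and *FAM210B*, for a mitochondrial membrane protein (5.98-fold, −489 to −253). The remaining one, at *NRAS*, was unlike them. It lay downstream of the start (positions 511 to 816, 6.33-fold), and its −log10 q of 31.9 was far above the next value, 12.1 at *PITPNA*. This peak of 306 bp held the whole of *NRAS* exon 2, which is 128 bp long, whereas the other 9 touched no exon of their gene's canonical transcript. *NRAS* had a further member upstream, at positions −520 to −177, with 3.0-fold and a −log10 q of 2.51. *SEMA4F*, for a semaphorin, completed the 10 members of highest −log10 q with 9.85 (5.68-fold, positions −590 to −107).

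Long members were of another kind. The longest was 11566 bp at *SLC1A4*, a neutral amino acid transporter, and reached from position −10613 to 952. A domain of 11053 bp at the cytokine gene *IL16* entered the window only by its upstream end, at position 982. Then came peaks of 9661 bp at *ENSG00000285976*, of 8461 bp at *ENSG00000284526* and of 7480 bp at *ATAD1*, for an AAA ATPase of the outer mitochondrial membrane. Their fold enrichment ranged from 3.44 at *IL16* to 4.09 at *ENSG00000284526*. Of all members, 171 (2.84%) were 3000 bp or longer and 729 (12.1%) were 250 bp or shorter.

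The bulk of the members were weak. Their fold enrichment had a median of 3.22 (95% interval of the median 3.20 to 3.23, n = 6023), with a lowest value of 2.41 and a highest of 6.98, and 5 in 100 lay above 4.27. The −log10 q had a median of 2.19, and 3587 members (59.6%) reached 2, 251 (4.17%) reached 5 and 9 (0.149%) reached 10. The median length was 674 bp. Peaks away from every protein-coding and lncRNA start (n = 51676) had a median fold enrichment of 3.07 (3.06 to 3.07), a median −log10 q of 1.93 and a median length of 600 bp. The intervals of the medians did not overlap, but the middle parts of both distributions did, with quartiles of 2.98 and 3.55 for the members and of 2.85 and 3.40 for peaks away from starts. The 385 peaks at divergent pairs had a median of 3.20 (3.16 to 3.27) and the 2015 at lncRNA starts only 3.18 (3.16 to 3.21).

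The gap in fold enrichment was not the same at every length. Among peaks of up to 250 bp the median was 3.38 for members (3.33 to 3.44, n = 729) and 3.09 for peaks away from starts (3.08 to 3.11, n = 8148). In peaks over 2000 bp it was 3.41 for members (3.37 to 3.46, n = 507) and 3.45 (3.43 to 3.46, n = 5255) for the others. The GC share of the member sequences was higher, with a median of 53.7% against 42.8% in peaks away from starts, and stayed so in every length class. At the limit of the window the values on both sides were near each other. The 160 members whose nearest end lay over 900 and up to 1000 bp from a start had a median of 3.05-fold, and the 193 peaks at over 1000 and up to 1100 bp, which are no members, had 3.08-fold.

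A promoter peak was present at 6063 of the 18395 genes outside divergent pairs, 33% (32.3 to 33.6). Of these genes 5585 had 1 peak and 478 had 2, which was the most for any gene. Conversely, 5522 members belonged to 1 gene, 484 to 2 genes and 17 to 3. As a local background, windows of the same width were placed 10 kb from the same starts. A peak of any class was found in 33.1% of the windows at the start, in 9.69% of those 10 kb upstream (9.27 to 10.1) and in 8.49% (8.10 to 8.90) of those 10 kb downstream. Thus the start window held a peak 3.64 times as often as the mean of the 2 flanking windows. This ratio was 1.93 with every transcript start in place of gene starts and 6.13 for peaks whose −log10 q reached 5. In the former setting a gene counted if any of its several windows held a peak, so 1.93 is not like for like. At 20 kb the shares were 9.39% and 8.78%. A lncRNA start lay within 1000 bp of 1214 members (20.2%). Genes with an antisense lncRNA starting up to 1000 bp upstream had a promoter peak in 44.1% of 1409 cases, against 32.0% of the 16986 other genes. Among CpG-rich promoters these shares were 45.9% and 44.4%, with overlapping intervals.

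The place of the peak differed between CpG-rich promoters, defined further down, and the rest. In the 6541 pairs of a member and a gene, the peak lay wholly upstream in 44.5% (43.3 to 45.7), covered the start in 35.8% (34.6 to 36.9) and lay wholly downstream in 19.7% (18.8 to 20.7). At CpG-rich promoters 52.4% (51.0 to 53.9) lay upstream and 30.2% covered the start. At the other promoters 28.0% (26.1 to 30.0) lay upstream and 47.5% covered the start, so that the order was turned. Counted per base, the share of genes whose sequence lay in a peak was highest at position −359, with 18.0%, and was 12.8% at the start, 3.94% at −3000 and 2.99% at 3000. Over all genes the profile thus rose from 9.61% at −1000 to this position and then fell towards the start. At CpG-rich promoters the highest share was 26.1%, at −402, and that at the start 14.6%, a ratio of 1.79. At the other promoters the profile hardly dipped, with its highest share of 11.4% at position 74 and 10.9% at the start.

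**Figure D1:**
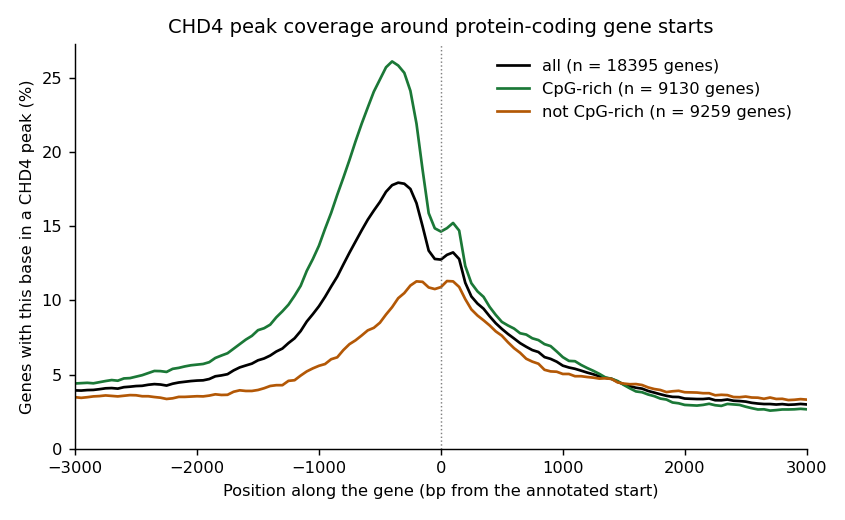
The share of genes (%) in which each base lay in a CHD4 peak, from 3000 bp upstream to 3000 bp downstream of the annotated start, for all genes outside divergent pairs, for CpG-rich promoters and for the rest. The CpG-rich curve reaches 26.1% upstream and drops to 14.6% at the start, while the curve of the other promoters is highest at 11.4% and reads 10.9% at the start.

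The downstream ends of peaks were unevenly spread around the start. The downstream end of the peak lay 100 to 200 bp before the start in 740 pairs (11.3%, 10.6 to 12.1) and 100 to 200 bp after it in 528 pairs (8.07%, 7.44 to 8.76), but in the 100 bp around the start itself in only 114 pairs (1.74%, 1.45 to 2.09). In CpG-rich promoters the same 3 shares were 13.7%, 7.96% and 1.33%. Most downstream ends lay elsewhere. For the upstream end the same windows held 2.42%, 2.37% and 2.52% of all pairs. At CpG-rich promoters these were 1.31%, 2.06% and 1.36%, and at the others 4.72%, 3.02% and 4.95%. Upstream ends also dipped, but just before the start, which these windows do not isolate. The bins of 50 bp from −150 to the start held 0.764%, 0.642% and 0.841% of all pairs. The bins on either side, from −200 and from 0, held 1.65% and 1.68%. At CpG-rich promoters the bins from −150 to the start held 0.339%, 0.294% and 0.362%. The members at *ATMIN* and *RBSN* ended before the start, at −150 and −139. The member at *CDK2AP1*, for a small NuRD subunit (4.40-fold, positions −147 to 155), ended after it.

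**Figure D2:**
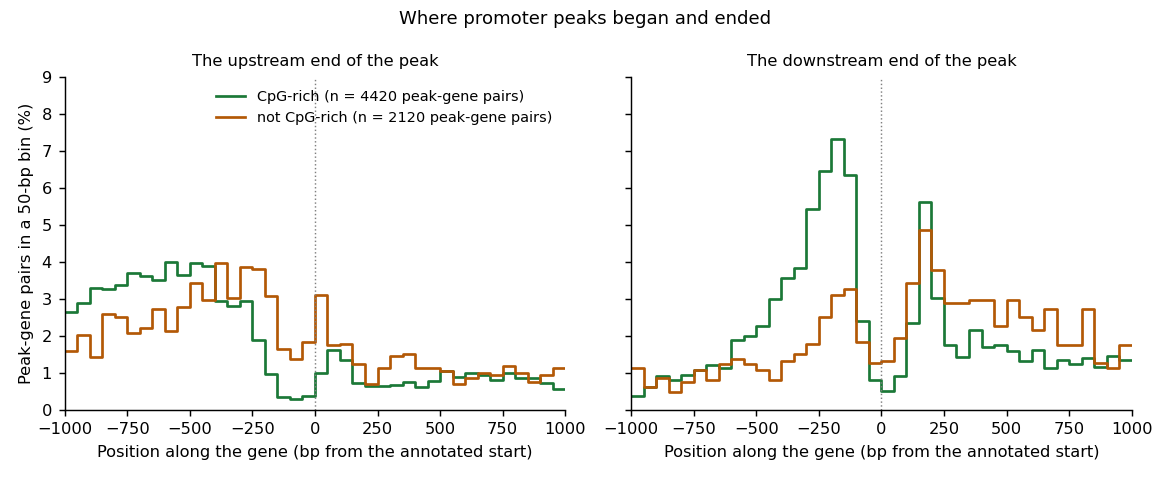
The share of peak-gene pairs (%) whose upstream end (left) or downstream end (right) fell in each bin of 50 bp along the gene, for CpG-rich promoters and the rest. Downstream ends pile up in the bins from −200 and from 150 and are scarce in the 2 bins next to the start, where the CpG-rich shares are 0.814% and 0.520%.

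A longer peak that overlaps a window centred on the start covers it more often by geometry, so that the following shares are a description. Of the pairs with a peak of up to 250 bp, 4.39% covered the start (3.16 to 6.07, n = 775) and 64.6% lay upstream. The share covering it was 16.0% for 251 to 500 bp, 35.3% up to 1000 bp, 59.8% up to 2000 bp and 69.2% (65.2 to 72.9, n = 558) above that. Of the 272 pairs whose −log10 q reached 5, 64.3% (58.5 to 69.8) lay upstream. In the 478 genes with 2 peaks, 389 (81.4%, 77.6 to 84.6) had 1 on each side of the start, with a median gap of 874 bp (850 to 912) between them. *HDAC1*, *GATAD2A*, *CHD3*, *FOSB* and *PGK1* had this arrangement around the starts of their gene records. In 84 genes a peak covered the start. Both peaks lay upstream in 3 genes and downstream in 2, with median gaps of 746 and 612 bp. Gaps of this size leave little room for 2 separate peaks on 1 side within 1000 bp. The share with 1 peak on each side is thus bound to the window too and is a description.

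The gene record starts at the most upstream transcript, which need not be the main one. For 68.3% of the genes the canonical transcript starts within 100 bp of it, and for 16.5% over 1000 bp away. In the first group the peak lay upstream in 52.6% of 4413 pairs and covered the start in 31.1%. With canonical starts in place of gene starts for every gene, 52.8% of the pairs lay upstream and 31.7% covered the start. Against the canonical transcript of each gene, the centre of the peak lay before the transcript in 79.0% of pairs, in intron 1 in 13.7%, in exon 1 in 5.21% and in a later exon in 0.734%.

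CpG-rich promoters carried a peak more often than others. A promoter was called CpG-rich if the 500 bp on either side of the start had a GC share of at least 55% and an observed over expected CG ratio of at least 0.6. Of 9130 such promoters 44.6% had a peak (43.6 to 45.6), and of the 9259 others 21.5% (20.6 to 22.3). Put the other way, 67.2% of promoters with a peak were CpG-rich and 41.0% of those without. The share with a peak rose with the CG ratio from 8.42% of 487 genes with a ratio below 0.1 to 23% between 0.4 and 0.5 and 43.2% between 0.6 and 0.7. Above that it stayed between 42.8% and 46.3%. Over all promoters the share rose with GC content from 9.56% at 30 to 35% GC to 42.2% at 60 to 65% and was 30.7% at 75 to 80%. Within CpG-rich promoters alone it fell from 50.6% (48.4 to 52.8) at 55 to 60% GC to 43.9% at 65 to 70% and 30.8% (27.3 to 34.4) at 75 to 80%, with 33.7% (24.6 to 44.2) of the 86 promoters above that. Whether GC content had a part in this was not tested.

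**Figure D3:**
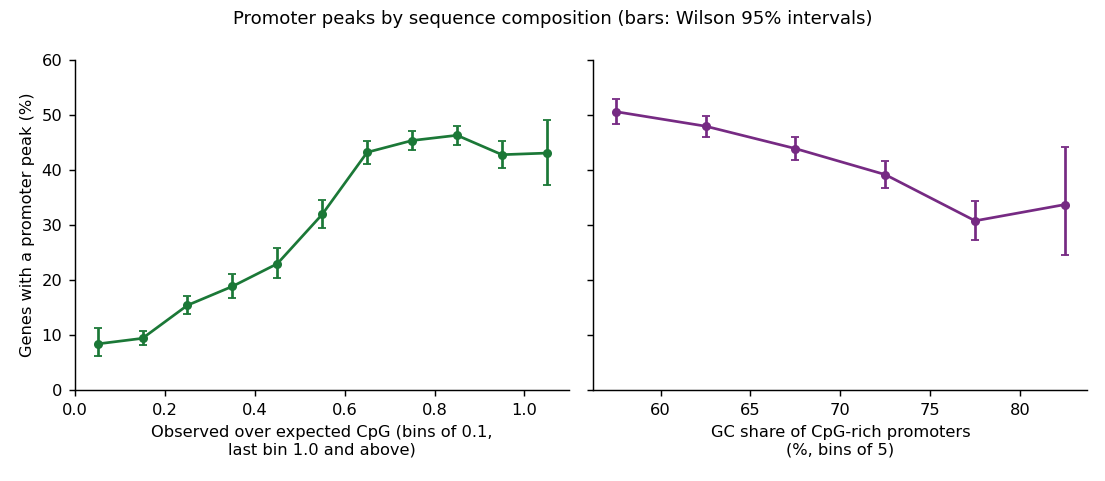
The share of genes with a promoter peak (%) by the observed over expected CG ratio of the promoter (left) and, for CpG-rich promoters, by GC share (right). Points are shares of genes and bars are Wilson 95% intervals; the share rises to 43.2% at a ratio of 0.6 to 0.7 and then levels off, while it declines with rising GC share from 50.6% to 30.8%, before a last bin of 86 genes.

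Short sequence motifs were counted in the 250 bp before to 50 bp after each start, on both strands. The comparison was made within CpG-rich promoters; there the CCAAT box (CCAAT, in 35.4% of all promoters) was present in 37.8% of promoters with a peak (36.3 to 39.3, n = 4074) and 30.2% (29.0 to 31.5, n = 5056) of those without. The ETS motif CCGGAAG (10.3% of all promoters) was found in 18.6% and 12.9%, and the E-box CACGTG (8.15%) in 11.5% and 8.80%. The motif of YY1, AAGATGGCG (1.65%), was in 3.34% and 1.92%, that of NRF1 (1.25%) in 2.82% and 1.52%, and the AP-1 motif TGACTCA (4.18%) in 2.50% and 1.58%. For these 6 motifs the intervals with and without a peak did not overlap. For AP-1 this was lost at a −log10 q of 2 or more (2.62% and 1.74%). They overlapped for the CRE TGACGTCA (3.66% and 2.87%), the M-box CATGTG (5.92% and 5.28%), the SOX motif ACAAAG (9.45% and 8.72%), the GC box GGGCGG (77.0% and 78.9%), CTCF (0.761% and 0.574%) and TATAAA (0.908% and 1.54%), the last counted only on the gene strand 36 to 24 bp before the start. The intervals of the CRE came apart from 500 bp before to 100 bp after the start (4.37% and 3.24%). None of the motifs spelled out contains another. Promoters were not matched for GC content, along which the share of CpG-rich promoters with a peak varied. The intervals make no allowance for the number of motifs read.

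Outside CpG-rich promoters the order was partly different. The ETS motif was in 9.56% of promoters with a peak and 4.08% without, the YY1 motif in 2.06% and 0.413%, and the GC box in 32.7% and 20.3%. TATAAA was in 2.57% of those with a peak and 5.21% of those without, and the M-box in 12.7% and 15.0%. AP-1 was at 6.49% and 6.30%. Over all promoters together AP-1 was at 3.81% with a peak and 4.36% without, the reverse of its order within the CpG-rich class. A match is a match of letters and not a bound site.

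Promoters of 2 members show these motifs in their setting. The 250 bp before the start are printed 5′ to 3′ along the gene from GRCh37. *FN1*, for fibronectin, had a member over its start (3.96-fold, positions −691 to 227). Its promoter (chr2:216300797-216301046, minus strand) has a CRE at −178, a CCAAT box at −157 and GC boxes from −124 on, which are in capitals. *SOX10*, for the neural crest and melanocyte transcription factor, had a member of 3110 bp over its start (3.74-fold, positions −347 to 2762). The promoter at the start of its gene record (chr22:38383430-38383679, minus strand) is not CpG-rich, with a CG ratio of 0.17 in these 250 bp. It holds an E-box at −97, in capitals. Whether this is the main promoter of *SOX10* was not checked.
FN1: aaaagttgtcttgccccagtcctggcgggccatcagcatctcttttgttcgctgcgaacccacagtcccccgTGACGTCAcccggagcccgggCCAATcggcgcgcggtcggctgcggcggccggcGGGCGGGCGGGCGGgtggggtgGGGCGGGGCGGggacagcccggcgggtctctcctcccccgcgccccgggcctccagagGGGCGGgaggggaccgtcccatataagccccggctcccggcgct
SOX10: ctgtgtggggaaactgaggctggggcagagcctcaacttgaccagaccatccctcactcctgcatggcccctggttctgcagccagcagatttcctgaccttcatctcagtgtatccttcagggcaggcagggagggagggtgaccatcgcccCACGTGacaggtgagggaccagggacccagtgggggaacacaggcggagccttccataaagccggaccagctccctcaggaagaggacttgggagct

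The share of genes with a promoter peak differed between chromosomes. It was lowest on chromosome X, with 75 of 822 genes (9.12%, 7.34 to 11.3), and low on chromosomes 18 (16.5%, 12.4 to 21.6), 21 (19.4%) and 14 (20.7%). It was highest on chromosome 22, with 202 of 421 genes (48.0%, 43.2 to 52.7), followed by 20 (43.0%), 19 (41.5%) and 6 (41.1%). Among CpG-rich promoters alone the shares were 15.3% on X and 17.8% on 18, and 60.8% on 22. Windows 10 kb from the same starts moved in the same direction, with 2.43% on X, 2.41% on 18 and 13.7% on 22, and the ratio of start to flank was 3.75 on X, 6.83 on 18 and 3.51 on 22. Over all chromosomes this ratio ran from 2.40 on chromosome 21 to 6.83 on 18. The strength of the members differed less, with median fold enrichments from 3.10 on chromosome 22 to 3.34 on chromosome 21, and 3.26 on X.

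**Figure D4:**
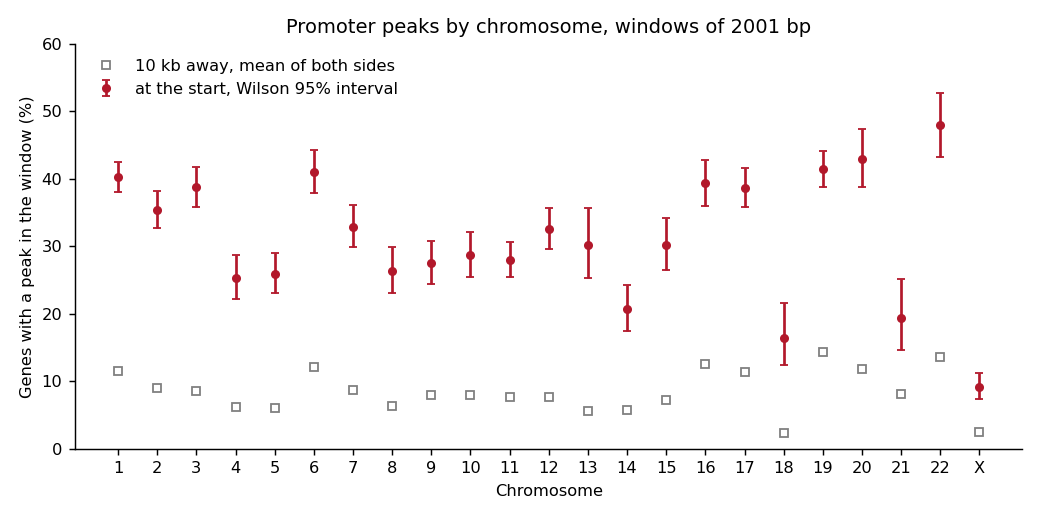
The share of genes (%) on each chromosome with a CHD4 peak in the window around the start (filled, with Wilson 95% intervals) and in windows of the same size 10 kb away (open, mean of both sides). Chromosomes X and 18 are lowest in both, at 9.12% and 16.5% for starts and below 3% for flanks.

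Gene lists were read against the 33% of all genes. Each gene was scored at the start of its gene record only, which need not be its main promoter. The lists differ in how many of their promoters are CpG-rich, from 0 of 94 keratin-associated proteins and 0 of 46 defensins to 13 of 14 RAS to ERK genes. Over all genes 44.6% of CpG-rich promoters had a peak, and the comparison with 33% does not take this into account. The median of the highest promoter fold enrichment per gene was 3.24 over the 6063 genes with a peak (quartiles 3.0 and 3.58). Genes of the NuRD complex itself had a promoter peak in 9 of 13 cases (69.2%, 42.4 to 87.3), with a median of 3.26-fold. The highest was *CDK2AP1*, for a small subunit of the complex (4.40-fold, positions −147 to 155), followed by *CHD4* (3.86-fold), the deacetylase gene *HDAC1* (3.35-fold) and *RBBP7*, for a histone-binding subunit (3.28-fold). The member at *CHD4* was 2925 bp long and covered the start of its gene record. Whether this is the main start of *CHD4* was not checked. *CHD3*, for the alternative motor, had 1 member on each side of its start (3.10- and 3.18-fold). *CHD5*, *MTA1*, *MTA2* and *MBD2* had none, and *RBBP4* and *MTA3* are in divergent pairs. The SWI/SNF remodeller had 12 of 26 (46.2%, 28.8 to 64.5, median 3.35-fold), with a peak at 10 of 20 CpG-rich promoters. It was led by *SMARCC2* (4.57-fold) and *BICRA* (4.44-fold). The Polycomb complexes had 14 of 26 (53.8%, median 3.39-fold), led by *RNF2*, for the ubiquitin ligase subunit (4.32-fold), and *EZH1*, for a histone methyltransferase (3.94-fold). Mediator had 7 of 19 (36.8%, 19.1 to 59.0, median 3.55-fold), with *MED11* at 3.98-fold and a peak at 5 of 11 CpG-rich promoters.

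Melanocyte genes had a peak in 12 of 20 cases (60.0%, 38.7 to 78.1), with a median of 3.57-fold, and 8 of the 20 promoters were CpG-rich. After *SLC45A2* came *DCT*, for a melanin synthesis enzyme (3.92-fold, positions −3213 to −538), *MITF*, for the master regulator of the lineage (3.80-fold, −912 to 304), and *SOX10*. The peak of *MITF* covered the start of its gene record, the most upstream of its promoters. In this count the other promoters of *MITF* were not scored. Genes of the invasive melanoma state had 7 of 18 (38.9%, 20.3 to 61.4, median 3.39-fold), with *SNAI2* (4.11-fold), *FN1*, *CCN2* (3.49-fold) and *TEAD4* (3.39-fold). *WNT5A*, *TGFBI*, *NT5E*, *EGFR*, *LOXL2*, *ZEB1*, *THBS1*, *NGFR*, *SOX9* and *AXL* were among those without. Transcription factors of the neural crest had 4 of 19 (21.1%, 8.51 to 43.3), with 16 CpG-rich promoters, and the 4 were *SNAI2*, *SOX10*, *TWIST1* (3.15-fold) and *PAX3* (2.93-fold). Those without were *PAX7*, *FOXD3*, *MYCN*, *ZIC1*, *MSX1*, *MSX2*, *TFAP2A*, *TFAP2B*, *TFAP2C*, *DLX5*, *DLX6*, *ETS1*, *SOX5*, *SOX9* and *SNAI1*, while *SOX8* is in a divergent pair. Genes of other lineages had 3 of 26 (11.5%, median 3.07-fold), namely *GFAP* (3.23-fold), *INS* (3.07-fold) and *SFTPC* (3.05-fold).

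Of the AP-1 family, whose FOS, JUN and ATF proteins bind as dimers, 10 of 11 genes had a promoter peak (90.9%, 62.3 to 98.4), with a median of 3.41-fold. The highest were *BATF* (4.08-fold), *JUND* (3.77-fold), *JUN* (3.68-fold, positions −535 to 237) and *FOSB* (3.53-fold), and *ATF3* had none. All 8 CpG-rich promoters of this family had a peak. Targets of MAPK signalling had 10 of 16 (62.5%, median 3.46-fold), with *EGR1* at 4.19-fold, *SPRY4* at 3.84-fold, *SPRED1* at 3.76-fold and *ETV5* at 3.53-fold. *SPRED2*, *SPRY1*, *DUSP4*, *DUSP5*, *MYC* and *ETV4* had none, and *SPRED3* is in a divergent pair. In the RAS to ERK cascade 8 of 14 had one (57.1%, 32.6 to 78.6, median 3.74-fold), with a peak at 7 of 13 CpG-rich promoters. After *NRAS* came *BRAF* (5.44-fold, positions −470 to 854) and *MAP2K2* (4.16-fold). *KSR1*, *KSR2*, *SOS2* and *GRB2* were among those without, and *HRAS*, *SHOC2* and *MAP2K1* are in divergent pairs. Cell cycle genes had 10 of 23 (43.5%, 25.6 to 63.2, median 3.14-fold), led by *E2F2* (3.52-fold) and *CCNE2* (3.43-fold).

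Among metabolic genes, glycolysis had 11 of 18 (61.1%, 38.6 to 79.7, median 3.29-fold), with *PGK1* at 3.90-fold, *ENO2* at 3.61-fold, *ENO1* at 3.40-fold and *PKM*, for pyruvate kinase, at 3.34-fold (positions −717 to 292). The members at *PGK1* lay near the start of its gene record, which was not CpG-rich. Whether this is the main start of *PGK1* was not checked. *HK1*, *PFKL*, *PFKP*, *TPI1*, *LDHA*, *LDHB* and *SLC2A3* had none, and *PGAM1* is in a divergent pair. The hypoxia list holds targets and also genes of the pathway itself, such as *HIF1A*, *ARNT* and *VHL*. It had 8 of 16 (50%, 28.0 to 72.0, median 3.61-fold), with *VEGFA* (5.54-fold, positions −758 to −350), *DDIT4* (4.27-fold), *VHL* (3.80-fold) and *P4HA1* (3.74-fold). *EGLN1*, *EPAS1*, *PDK1*, *P4HA2*, *BNIP3*, *BNIP3L*, *NDRG1* and *CA9* had none, and *ADM* and *ANKRD37* are in divergent pairs. Oxidative phosphorylation had 32 of 66 (48.5%, 36.8 to 60.3, median 3.11-fold), with *COX6A1* at 5.34-fold (positions −391 to −193). Solute carriers had 111 of 357 (31.1%, 26.5 to 36.1), below the 33% of all genes but with an interval that spans it, and *SLC35B4* followed *SLC45A2* with 4.96-fold.

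Ribosomal protein genes had 44 of 72 (61.1%, 49.6 to 71.5, median 3.36-fold), with *RPS12* (4.56-fold), *RPL32* (4.46-fold) and *RPS10* (4.44-fold). In their 45 pairs the peak lay upstream in 34, covered the start in 9 and lay downstream in 2. Oxidative phosphorylation genes differed in placement, with 10 upstream, 19 covering and 3 downstream of 32 pairs. Proteasome subunits had 21 of 33 (63.6%, 46.6 to 77.8, median 3.33-fold, led by *PSMA4* at 4.21-fold), translation initiation factors 27 of 47 (57.4%, 43.3 to 70.5, median 3.14-fold, led by *EIF5A* at 4.32-fold) and ubiquitin-conjugating enzymes 16 of 30 (53.3%, 36.1 to 69.8, median 3.56-fold, led by *UBE2Z* at 4.35-fold). RAB GTPases had 26 of 57 (45.6%, 33.4 to 58.4, median 3.21-fold, led by *RAB3A* at 5.02-fold), with a lower bound near the 33% of all genes, and C2H2 zinc finger genes named ZNF 180 of 474 (38.0%, 33.7 to 42.4, median 3.32-fold, led by *ZNF805* at 5.33-fold). At CpG-rich promoters of ZNF genes the share was 43.7%, near the 44.6% of all such promoters. Histone genes had 23 of 45 (51.1%, 37 to 65.0, median 3.24-fold, led by *H1-2* at 4.32-fold), with 9 of the 45 promoters CpG-rich.

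Olfactory receptors had 8 of 411 (1.95%, 0.990 to 3.79, median 3.33-fold, led by *OR1F1* at 3.45-fold), with 1 of their promoters CpG-rich. Keratin-associated proteins had 3 of 94 (3.19%, led by *KRTAP19-1* at 3.82-fold) and keratins 2 of 55 (3.64%, *KRT80* at 3.09-fold and *KRT20* at 2.68-fold). Clustered protocadherins (0 of 53, up to 6.76%), defensins (0 of 46, up to 7.71%) and taste and vomeronasal receptors (0 of 30, up to 11.4%) had no promoter peak. Interferons and interleukins had 7 of 66 (10.6%, 5.23 to 20.3, led by *IL17D* at 3.84-fold). Potassium channels had 12 of 92 (13.0%, 7.62 to 21.4, median 2.93-fold, led by *KCNJ13* at 3.69-fold), with a peak at 5 of their 50 CpG-rich promoters. Collagens had 7 of 40 (17.5%, 8.75 to 32.0, led by *COL9A1* at 4.27-fold), with none at their 14 CpG-rich promoters. HOX genes had 11 of 39 (28.2%, 16.5 to 43.8, an interval that spans 33%), with a peak at 7 of 23 CpG-rich promoters and *HOXC10* at 3.93-fold. All 20 lists above 33% and all 15 below it stayed on the same side of the share of all genes when peaks below a −log10 q of 2 were dropped, and when the window was 2000 bp on either side. Those shares over all genes were 20.5% and 37.7%, and AP-1 was at 54.5% without the weaker peaks. Both settings reuse the same peak list, and a side alone does not set a list apart from 33%. Among lists above it, intervals spanned 33% for SWI/SNF, Mediator, cell cycle, invasive state, RAS to ERK and hypoxia. Among lists below it, those of HOX genes, solute carriers, neural crest factors, peptidylarginine deiminases and the retested genes did.

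**Figure D5:**
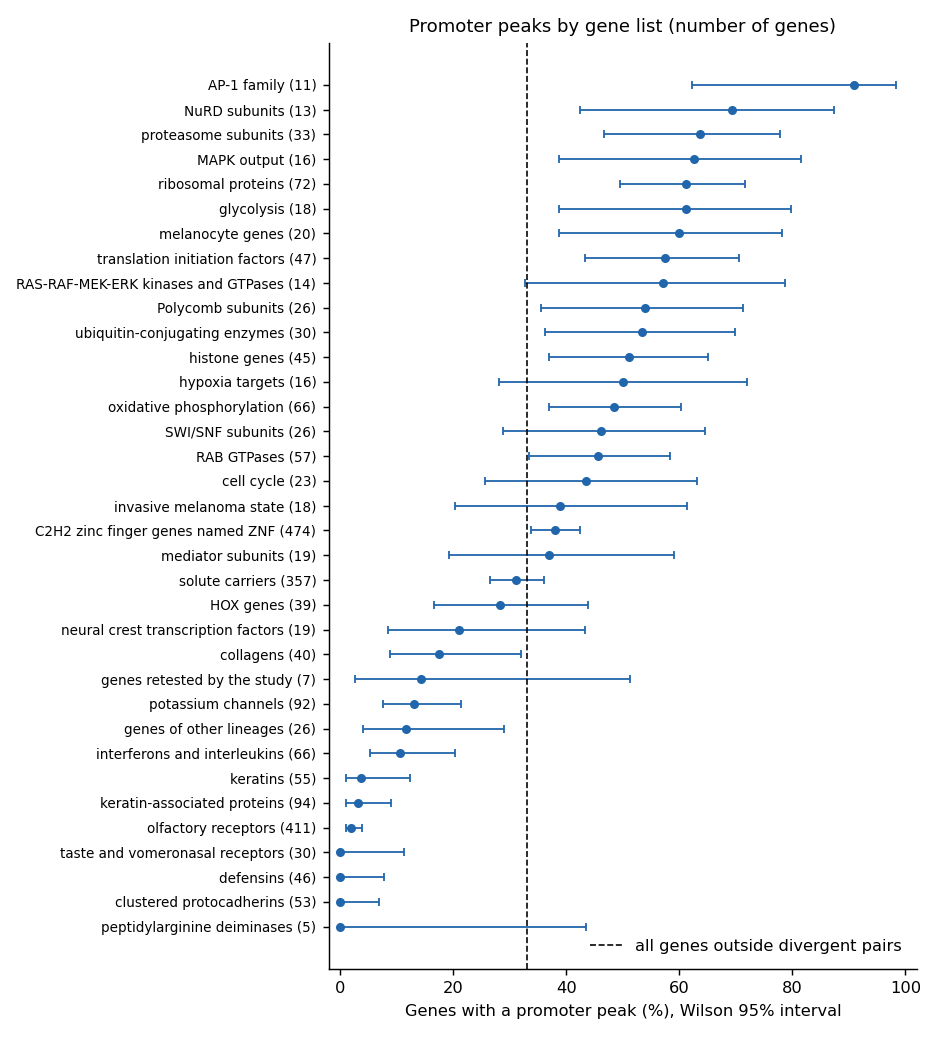
The share of genes with a CHD4 promoter peak (%) in each of 35 gene lists, with the number of genes outside divergent pairs in brackets, Wilson 95% intervals as bars and the 33% of all such genes as a dashed line. AP-1 genes are highest at 90.9%, and 4 lists are at 0.

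Of the genes that the study names, *MITF*, *SOX10*, *CHD3*, *CHD4* and *PKM* had the promoter peaks described above, at the starts of their gene records. None of the 5 peptidylarginine deiminase genes, which encode enzymes that convert arginine to citrulline in proteins, had a promoter peak (0 of 5, interval up to 43.4%, which spans the 33% of all genes). The nearest peak lay 13645 bp downstream of the start of *PADI1* (3.31-fold), 9735 bp upstream of that of *PADI3* (3.13-fold) and 8091 bp upstream of that of *PADI2* (3.07-fold). For *PADI6* and *PADI4* it was 20113 bp downstream and 33236 bp upstream. Of their promoters only that of *PADI2* was CpG-rich. The study reported CHD4 at an element within an intron of *PADI1*, predicted to act on *PADI1* and *PADI3*. The count here covers promoter windows only and does not score that element. The peaks nearest to the starts of *PADI1* and *PADI3* both lay between these starts. Whether a peak named here is that element was not checked. Of 7 other genes that the study retested, *MAP2*, for a microtubule-associated protein, had a peak over its start (2.57-fold, positions −692 to 467), which is 14.3% with an interval of 2.57 to 51.3%. *RAC2* (nearest peak 4161 bp downstream), *PKP1* (5910 bp upstream), *CNTFR* (8250 bp downstream), *THY1* (42931 bp downstream) and *ATP2B3* (62089 bp upstream) were among those without. Of the transcription factors it placed beside CHD4, *FOSL2* had a member that ended 923 bp upstream of its start (3.35-fold), and *CTCF* had none, with the nearest peak 6172 bp upstream. Only 272 of the 18395 genes (1.48%) had a promoter peak whose −log10 q reached 5, and none of the genes in this paragraph was among them.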

How the data were processed

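CHD4 ChIP and input libraries of 501Mel cells (n = 1 each) were sequenced by the authors as single reads, mapped to hg19 with Bowtie (1.0.0 in the submitters' processing notes), set to discard reads with more than 1 equally good place, and broad peaks were called with MACS2 (2.1.1.20160309). The control of the call is not given in the sources used here, and the library kit is given differently by the labels and the methods. The deposited list of 60126 peaks gives, per peak, the fold enrichment over background, a ratio made by the authors' peak caller, and the −log10 p and −log10 q that it computed. It holds no read counts. Its −log10 q reaches down to 1.01 among the members, below the limit stated for the call in the methods, and all its peaks were kept.

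Peaks were read as 1-based positions and compared with GENCODE release 44 gene records on GRCh37, whose chromosome lengths held all peaks. CpG content and motifs were taken from the GRCh37 sequence (Python 3, pandas, SciPy). Shares have Wilson 95% intervals and medians have binomial rank intervals. Genes in divergent pairs were left out, and 19 further genes lost their only peak because it also lay near such a pair. The scripts were tested on simulated peaks. Alternatives covered the window, the −log10 q, joined peaks, peak centres, transcript starts, divergent distance and CpG limits.

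Members, gene lists and motifs were chosen with earlier results of these data known. Named genes are the 10 members of highest fold enrichment, the 10 of highest −log10 q, the 5 longest, the genes the study names, and in each list up to 4 genes of highest fold enrichment and, for lists of up to 20 genes, those without a peak. The 478 genes that tied for most peaks were not all named. Some genes that this rule names are not reported here.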

Additional observations from a re-analysis of the deposited data

How the results depend on the processing

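The number of members stayed within 1.5 times of 6023 for windows of 500 and 2000 bp, joined peaks, peak centres and other divergent distances. It was 3587 at a −log10 q of at least 2 and 251 at 5, and 9807 with every transcript start. Genes with a peak were then 3764, 272 and 6787 (the last within 1.5 times of 6063). The median fold enrichment was 3.25 for 500 bp, 3.19 for 2000 bp, 3.47 and 4.68 at a −log10 q of at least 2 and 5, 3.25 for joined peaks and 3.19 for every transcript start. The share of members covering the start (36.7%) was 45.1% for 500 bp and 29.4% for 2000 bp, by the windows' own construction, 40.2% and 25.5% at the stricter −log10 q, 42.7% for joined peaks, 40.9% for centres and 41.5% for every transcript start. It was 31.7% with canonical transcript starts, an alternative added after seeing the data. The ratio of start to flanking windows (3.64) was 6.13 where −log10 q reached 5 and 1.93 with every transcript start. With every transcript start a gene counted if any of its several start or flanking windows held a peak. The value of 1.93 is therefore not like for like with 3.64. The cause of either change was not tested.

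The CpG-rich share stayed above the CpG-poor share in every setting run. They were 38.3% and 18.3% for 500 bp, 49.5% and 26.2% for 2000 bp, 28.4% and 12.6% at a −log10 q of at least 2, 2.18% and 0.788% at 5, 39.7% and 18.4% for centres, and 51.4% and 29.7% with every transcript start. Promoters with a CG ratio under 0.4 had 13.5%. Within CpG-rich promoters every motif kept the direction of its difference at a −log10 q of 2 or more, and so did all but TATAAA, which was not rerun, from 500 bp before to 100 bp after the start. The intervals of AP-1 with and without a peak then overlapped at a −log10 q of 2 or more, and those of the CRE no longer did in the wider window. No paired analysis was possible because each group has 1 library, and for the same reason no replicate could be left out.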
